A study of Apis mellifera with 24 samples.

Results

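In the ovaries of honey bee queens, 157 transcripts stood apart in egg-laying recovery queens, while their level in egg-laying inhibited queens stayed near that in egg-laying queens. They are the transcripts changed only after release, 80 of them rising and 77 falling, out of 21596 transcripts measured. Ovaries came from 12 sister queens of Apis mellifera ligustica raised from a single source colony, with 3 queens in each of 4 groups and 1 mRNA library for each queen. Egg-laying recovery queens were caged for 7 days, released, and collected on day 8 after laying again. Egg-laying inhibited queens were caged in their own hive for 7 days and collected on day 7. Egg-laying queens had been instrumentally inseminated and laid without caging, and the inhibited queens were such queens before they were caged. Virgin queens were not inseminated. Release was sampled on a single day, and the 3 queens of a group are the replicates of every comparison. Groups were collected at different stages, so age can differ between them and cannot be told apart from the treatment.

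The members were chosen by measured values. A member had a mean of at least 2 FPKM (fragments scaled to transcript length and to the mapped fragments of the library) over the 9 mated queens, an inhibited mean of at least 0.8 times the egg-laying mean, and an egg-laying mean of at least 0.8 times the inhibited mean. Its 3 recovery values lay all above, or all below, the values of the 6 inhibited and egg-laying queens. Its recovery mean was at least 1.5 times both other means, or at least 1.5-fold below both. Of the 11235 transcripts that reached 2 FPKM, 0.712% met these limits in the rising direction and 0.685% in the falling direction. Every difference of recovery queens from inhibited or egg-laying queens given here for a member is therefore a description of how it was selected, and no test of it is given. The virgin libraries took no part in the selection. The same limits with the inhibited queens as the group apart held for 84 transcripts (46 rising, 38 falling), and with the egg-laying queens as the group apart for 67 (16 rising, 51 falling).

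The honey bee ovary is a bundle of ovarioles, in which germ cells give rise to an oocyte and the nurse cells that supply it, wrapped in a layer of follicle cells. Insemination switches the small ovary of a virgin queen to continuous egg production. A caged queen has no comb cells in which to lay, so oviposition stops, and it starts again when she is released. Ecdysteroids and juvenile hormone act on the ovary throughout this cycle, and ecdysteroids signal through a receptor built of EcR and its partner ultraspiracle.

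The libraries of virgin queens differed most from the others. Summed FPKM was 521059 to 559542 in the libraries of mated queens, against 355905 to 405177 in those of virgin queens, and Spearman correlations across transcripts within groups were 0.960 to 0.971. FPKM carries no read count, but the smallest steps between low values placed the value of 1 read within 1.49-fold among the 9 mated libraries. Germline markers were present throughout: the summed level of vas, nanos and aub was 549.9 to 596.6 FPKM in recovery, 487.9 to 559.1 FPKM in inhibited, 452.2 to 599.4 FPKM in egg-laying and 185.3 to 309.6 FPKM in virgin queens. In bulk tissue, a change in the number of cells of a type and a change of RNA per cell cannot be told apart.

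In the rising set, the recovery mean was 1.53 to 3.64 times the mean of the 6 inhibited and egg-laying queens, with a median of 1.77. In the falling set it was 0.238 to 0.661 times that mean, with a median of 0.569. Only 9 rising and 14 falling members were at least 2-fold from both groups. Many members were scarce transcripts: 33 rising and 29 falling members had a mated mean under 5 FPKM, as did 20.3% of all transcripts that reached 2 FPKM, and the median mated level was 6.17 FPKM in the rising and 5.95 FPKM in the falling set, beside 15.9 FPKM over those transcripts. The 3 recovery queens did not depart equally. The median ratio of a rising member to the mean of the other 6 mated queens was 1.56 in recovery queen 1, 1.77 in queen 2 and 1.89 in queen 3, and queen 1 was the lowest of the 3 for 47 of the 80. Falling members had median ratios of 0.597, 0.534 and 0.561 in recovery queens 1, 2 and 3.

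**Figure D1:**
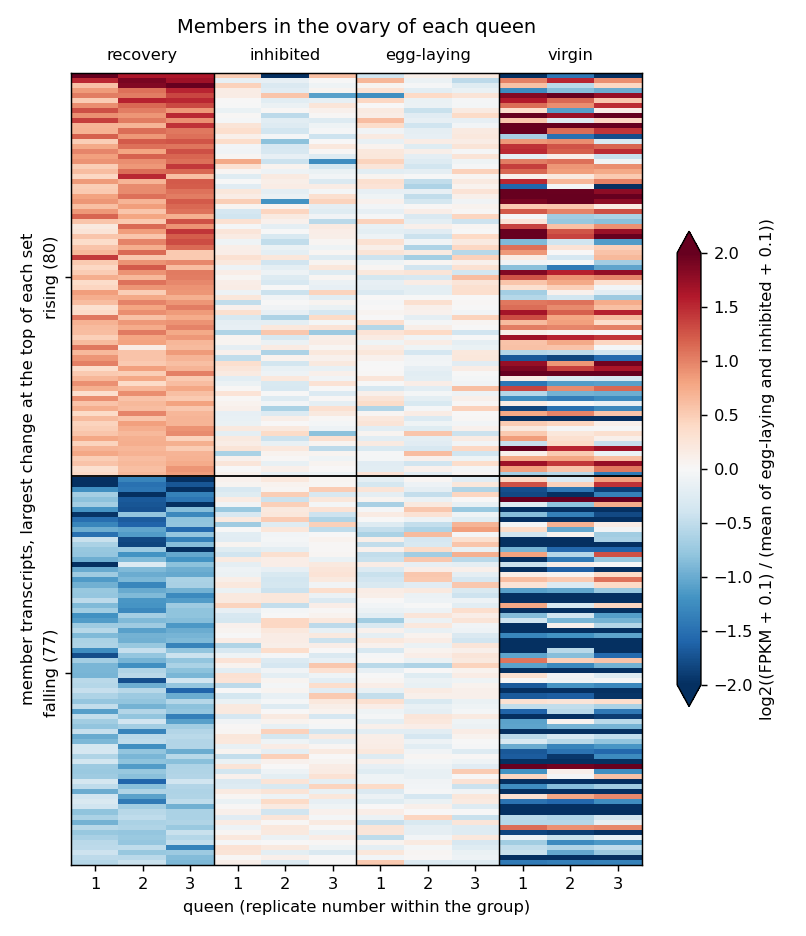
Each row is a member and each column a queen; colour gives log2 of FPKM (plus 0.1) over the mean of the 6 inhibited and egg-laying queens (plus 0.1). The recovery columns are apart by construction, the inhibited and egg-laying columns stay near 0, and in the virgin columns many of the 80 rising members are red and many of the 77 falling members blue.

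Gene identity is known for part of the members. A gene ID could be paired with 122 of the 157 transcripts (117 genes), and 9 of these genes carry a name. Genes known only by a LOC symbol are given by it, without a role.

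Among the rising members with a name, 2 encode chitin-binding proteins of the cuticle. CPR4, a cuticular protein of the Rebers and Riddiford family (NM_001270820.1), had 52.4, 62.0 and 82.95 FPKM in recovery queens, 32.1, 24.6 and 30.1 FPKM in inhibited queens, 35.3, 24.9 and 26.2 FPKM in egg-laying queens and 12, 15.9 and 14.5 FPKM in virgin queens. All 9 mated queens were above all virgin queens, with recovery queens the farthest from them, and the recovery mean of CPR4 was 2.28 times the egg-laying mean. Against virgin queens it was higher by 2.12 ± 0.18 on the log2 scale in recovery queens and by 0.97 ± 0.18 in egg-laying queens (adjusted p = 0.000765). These and later tests against virgin queens are from limma on log2(FPKM + 1), as estimate ± SE, with p-values adjusted over all 17924 transcripts tested. Differences of recovery from virgin queens are given without p for single members, since the recovery values had been selected to lie apart. The egg-laying values had entered the selection too, so for a member the p-value of egg-laying vs. virgin queens is a description. Cpap3-b, an analogue of peritrophin (NM_001172378.1), had 60.7, 65.5 and 55.3 FPKM in recovery queens, 33.0, 44.15 and 36.6 FPKM in inhibited queens, 45.6, 33.5 and 37.1 FPKM in egg-laying queens and 42.5, 31.55 and 30.7 FPKM in virgin queens. Here the inhibited, egg-laying and virgin queens shared a range and the recovery queens lay above it. Egg-laying and virgin queens differed by 0.15 ± 0.15 (adjusted p = 0.424), and recovery minus virgin queens was 0.79 ± 0.15.

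Usp, the ultraspiracle partner of the ecdysone receptor, is in the rising set with 1 of its 10 transcripts (XM_006561554.1). That transcript had 11.5, 11.8 and 11.5 FPKM in recovery queens, 8.15, 6.63 and 6.004 FPKM in inhibited queens, 7.02, 6.91 and 6.97 FPKM in egg-laying queens and 4.66, 5.39 and 4.16 FPKM in virgin queens. The groups formed 3 steps, with recovery highest, inhibited and egg-laying queens together, and virgin queens lowest. It was higher than in virgin queens by 1.14 ± 0.13 in recovery queens and by 0.48 ± 0.13 in egg-laying queens (adjusted p = 0.00929), and with all libraries rescaled to the same sum the difference of egg-laying queens was 0.06 and no longer passed. Summed over the 10 transcripts, Usp had 51.3, 52.1 and 56.7 FPKM in recovery queens, 41.3, 37.2 and 43.9 FPKM in inhibited queens, 44.8, 40.5 and 52.9 FPKM in egg-laying queens and 37.3, 30.6 and 37.2 FPKM in virgin queens. At the level of the gene, recovery and egg-laying queens overlapped.

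Fabp, a fatty acid binding protein (NM_001011636.1), had 21.6, 44.3 and 43.65 FPKM in recovery queens, 15.3, 13.1 and 13.6 FPKM in inhibited queens, 20.4, 13.9 and 15.03 FPKM in egg-laying queens and 45.9, 33.8 and 22.1 FPKM in virgin queens. Recovery queen 1 was barely above egg-laying queen 1, while the other two recovery queens were within the virgin range. Egg-laying queens were lower than virgin queens by -0.96 ± 0.29 (adjusted p = 0.014), a call lost without virgin replicate 1 (-0.72) or egg-laying replicate 2 (-0.86), and recovery and virgin queens differed by 0.09 ± 0.29. Uvop, the ultraviolet-sensitive opsin known from the bee eye (NM_001011605.1), was likewise higher in recovery and virgin queens, at a low level. It had 4.86, 4.25 and 6.095 FPKM in recovery queens, 2.32, 1.93 and 2.47 FPKM in inhibited queens, 2.84, 2.64 and 2.40 FPKM in egg-laying queens and 7.00, 5.67 and 7.02 FPKM in virgin queens. Egg-laying queens were lower than virgin queens by -1.06 ± 0.17 (adjusted p = 0.0002), and recovery minus virgin queens was -0.32 ± 0.17.

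Prohormone-2 (LOC409314, NM_001167836.1), a precursor of neuropeptides, had 11.3, 19.9 and 12.9 FPKM in recovery queens, 7.85, 7.375 and 9.88 FPKM in inhibited queens, 8.65, 6.45 and 10.4 FPKM in egg-laying queens and 4.66, 3.12 and 4.03 FPKM in virgin queens. As with CPR4, virgin queens were lowest and recovery queens highest. The difference from virgin queens was 1.64 ± 0.22 in recovery queens and 0.94 ± 0.22 in egg-laying queens (adjusted p = 0.00387), and with libraries rescaled to the same sum the difference of egg-laying queens was 0.52 and no longer passed.

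**Figure D2:**
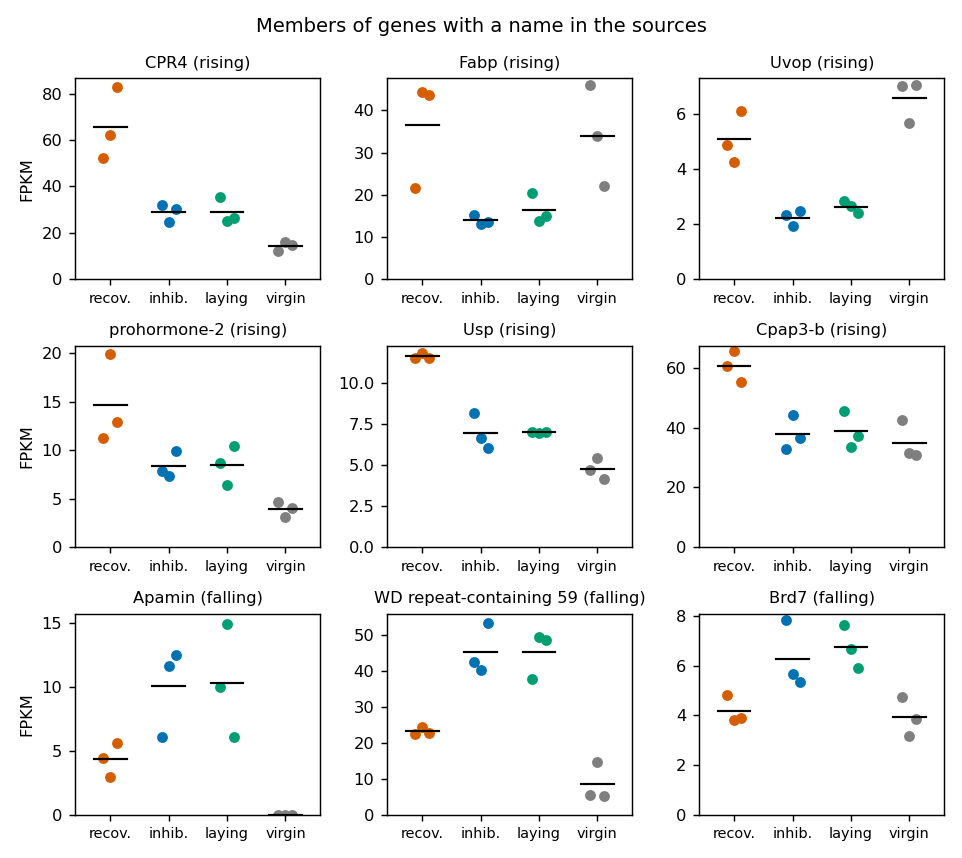
FPKM in each queen (points) and the group mean (line) for the 9 members whose gene has a name, with groups from left to right recovery, inhibited, egg-laying and virgin. Fabp and Uvop have virgin queens as high as or above the recovery queens, CPR4, Usp and prohormone-2 have virgin queens lowest, and Apamin is listed at 0 in all 3 virgin queens.

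Members were ranked by the ratio of the recovery mean to the nearer of the inhibited and egg-laying means, and most of the largest ratios in the rising set belonged to genes without a name. LOC412777 (XM_006571283.1) had 5.21, 3.805 and 3.79 FPKM in recovery queens, 1.72, 0.00102 and 1.83 FPKM in inhibited queens, 0.864, 1.275 and 1.36 FPKM in egg-laying queens and 0, 0.366 and 0.219 FPKM in virgin queens. It is 1 of 5 transcripts of its gene, and the other 4 together had a recovery mean 1.01 times their inhibited and egg-laying mean. LOC409512 (XM_006564033.1) had 4.34, 5.72 and 4.96 FPKM in recovery queens, 1.29, 1.29 and 1.45 FPKM in inhibited queens, 2.37, 1.34 and 0.984 FPKM in egg-laying queens and 3.04, 4.35 and 2.865 FPKM in virgin queens, so its virgin queens came close to the recovery queens. LOC410087 (XM_393575.5) had 12.2, 29.6 and 33.7 FPKM in recovery queens, against 11.1, 6.59 and 7.596 FPKM in inhibited and 8.425, 7.97 and 6.825 FPKM in egg-laying queens. Virgin queens had 12.1, 5.53 and 10.8 FPKM. In this case recovery queen 1 was close to the highest of the other mated queens and the remaining recovery queens were far above.

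LOC412197 (XM_395659.5) had a large ratio with little spread. It had 52.6, 61.2 and 69.4 FPKM in recovery queens, 27.5, 25.4 and 32.6 FPKM in inhibited queens, 27.9, 25.5 and 26.7 FPKM in egg-laying queens and 59.9, 52.4 and 76.9 FPKM in virgin queens. Recovery and virgin queens covered the same range (-0.04 ± 0.14 for recovery minus virgin), and egg-laying queens were lower than virgin queens by -1.19 ± 0.14 (adjusted p = 2.665e-05). The others among the 8 largest of these ratios, besides CPR4 and Fabp, were LOC408342 (XM_006559003.1), with 2.99 to 3.74 FPKM in recovery queens and 0.547 to 2.13 FPKM in inhibited and egg-laying queens, and XM_006569119.1, without a gene ID, with 4.70 to 6.37 FPKM and 1.83 to 2.90 FPKM. This LOC408342 transcript held 1.61% of the FPKM of its gene. The most abundant rising members were single transcripts of LOC102655896 (133, 157.5 and 180.0 FPKM in recovery queens), LOC409552 (120.1, 182 and 146 FPKM), LOC100578044 (73.0, 121 and 125 FPKM) and LOC725480 (71.4, 98.1 and 98.3 FPKM). Their inhibited and egg-laying queens ranged from 86.7 to 122.5, 76.2 to 105, 29.4 to 67.4 and 46.2 to 66.05 FPKM in this order, so recovery queen 1 was just above the highest of them for LOC725480 and LOC100578044. The members of LOC102655896 and LOC409552 held 20.5% and 13.9% of the FPKM of their genes. Summed over all transcripts, these genes had recovery means 1.18 and 1.17 times the inhibited and egg-laying mean, and recovery queens were not apart.

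In the falling set, the member with a name and the largest change was Apamin (NM_001011612.1), the venom peptide that blocks small-conductance calcium-activated potassium channels. It had 4.44, 2.98 and 5.63 FPKM in recovery queens, 6.093, 11.7 and 12.5 FPKM in inhibited queens and 10.01, 14.98 and 6.088 FPKM in egg-laying queens, and was listed at 0 in all 3 virgin queens. All mated queens had the transcript and the recovery queens had the least of it. Egg-laying queens were higher than virgin queens by 3.43 ± 0.32 (adjusted p = 3.465e-06) and recovery queens by 2.39 ± 0.32, on the log2(FPKM + 1) scale on which the pseudocount sets the size of a change from 0.

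WD repeat-containing protein 59 (LOC410345, XM_006566402.1), a part of the GATOR complex upstream of TOR in flies and mammals, had 22.5, 24.4 and 22.9 FPKM in recovery queens, 42.5, 40.3 and 53.4 FPKM in inhibited queens, 37.7, 49.5 and 48.7 FPKM in egg-laying queens and 5.44, 14.7 and 5.34 FPKM in virgin queens. The recovery queens lay between the other mated queens and the virgin queens, with no overlap on either side. Egg-laying queens were higher than virgin queens by 2.42 ± 0.28 (adjusted p = 2.12e-05) and recovery queens by 1.49 ± 0.28. Brd7 (NM_001242516.1), a bromodomain protein of chromatin complexes in mammals, had 4.84, 3.82 and 3.88 FPKM in recovery queens, 7.85, 5.67 and 5.34 FPKM in inhibited queens, 7.65, 6.67 and 5.91 FPKM in egg-laying queens and 4.75, 3.17 and 3.86 FPKM in virgin queens. Recovery queens overlapped the virgin range (0.08 ± 0.18 for recovery minus virgin), and egg-laying queens were above it by 0.66 ± 0.18 (adjusted p = 0.00924), a difference of 0.25 that no longer passed with all libraries rescaled to the same sum. This transcript made up 8.66% of the FPKM of Brd7, and the other transcript of the gene had a recovery mean 0.926 times its inhibited and egg-laying mean.

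The lowest ratios to the nearer mean were those of 2 transcripts of LOC410915, a gene without a name. XM_006569222.1 had 1.17, 3.41 and 1.60 FPKM in recovery queens, 9.17, 9.99 and 8.96 FPKM in inhibited queens, 7.57, 8.86 and 7.43 FPKM in egg-laying queens and 11.5, 7.18 and 15.4 FPKM in virgin queens. XM_394391.5 had 2.21, 3.27 and 2.77 FPKM in recovery queens, 9.70, 9.75 and 9.64 FPKM in inhibited queens, 7.305, 8.685 and 10.9 FPKM in egg-laying queens and 22.6, 12.8 and 25.5 FPKM in virgin queens. For both, recovery queens were the lowest of all 4 groups, below virgin queens by -2.03 ± 0.28 and by -2.46 ± 0.23. XM_006569220.1, a transcript of the same gene that is no member, was low with them, at 5.34, 5.58 and 4.70 FPKM in recovery queens against 17.1, 19.8 and 15.6 FPKM in inhibited and 9.08, 16.1 and 16.2 FPKM in egg-laying queens, and the sum over the 5 transcripts had a recovery mean 0.298 times the other. LOC726418 (XM_001122155.3) was likewise farthest from virgin queens in recovery queens, with 4.54, 2.46 and 2.86 FPKM in recovery queens, 9.10, 5.99 and 9.48 FPKM in inhibited queens, 8.42, 7.44 and 8.12 FPKM in egg-laying queens and 76.1, 44.3 and 61.4 FPKM in virgin queens. LOC410447 (XM_006560389.1) was less even, at 16.5, 2.945 and 10.3 FPKM in recovery queens against 21.2 to 37.3 FPKM in inhibited and 19.1 to 35.8 FPKM in egg-laying queens, and recovery queen 2 was the farthest. The others among the 8 lowest ratios to the nearer mean, beside Apamin, were 3 transcripts without a gene ID, of which XM_006571826.1 had 1.34 to 2.915 FPKM in recovery, 5.60 to 10.02 FPKM in inhibited, 4.58 to 8.41 FPKM in egg-laying and 1.82 to 2.515 FPKM in virgin queens. XM_006560373.1 had 2.84 to 7.996 FPKM in recovery queens, with queen 1 just under the lowest egg-laying value of 8.205 FPKM, and XM_006568298.1 had 0.714 to 1.73 FPKM, against 2.28 to 3.75 FPKM in the inhibited and egg-laying queens.

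The most abundant falling member was XM_006557891.1 of LOC100578903. It had 3334, 3309 and 2621 FPKM in recovery queens, 4845, 5132 and 4836 FPKM in inhibited queens, 4593, 4865 and 4473 FPKM in egg-laying queens and 45.7, 211 and 28.3 FPKM in virgin queens. Alone it held 80.2 to 83.4% of the summed FPKM of the falling set in recovery queens, against 3.81 to 28% in virgin queens. Egg-laying queens were higher than virgin queens by 6.13 ± 0.53 (adjusted p = 1.76e-06) and recovery queens by 5.54 ± 0.53. LOC551180 (XM_006565481.1) and LOC412031 (XM_006557705.1) followed the same order. LOC551180 had 74.2, 67.4 and 45.5 FPKM in recovery queens, 75.55, 124 and 126 FPKM in inhibited queens, 121, 106 and 135 FPKM in egg-laying queens and 0.711, 0.306 and 0.983 FPKM in virgin queens. LOC412031 had 147, 120.1 and 100.2 FPKM in recovery queens, 197.5, 219.9 and 183 FPKM in inhibited queens, 195, 209.7 and 162 FPKM in egg-laying queens and 4.53, 12.5 and 7.602 FPKM in virgin queens. In all 3 transcripts the recovery queens were the lowest of the mated queens and still far above the virgin queens. LOC409361 (XM_392876.5), next in mated mean, had 44.7 to 56.05 FPKM in recovery queens, 64.3 to 108 FPKM in inhibited queens, 59.05 to 104 FPKM in egg-laying queens and 33.6 to 49.6 FPKM in virgin queens.

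The limits of the selection cut through a continuum. Gene symbols stand here for single transcripts. Of the rising members, that of LOC408342 was the scarcest, at 2.02 FPKM, and that of LOC552048 stayed outside at 1.98 FPKM. Summed over all transcripts, LOC408342 had a recovery mean 1.08 times the inhibited and egg-laying mean, and the member held 1.61% of it. Measured to the nearer of the inhibited and egg-laying means, LOC102655896 had the lowest fold, 1.502, and XM_006568251.1 stayed outside at 1.499. The inhibited mean was 0.801 times the egg-laying mean in XM_394224.4 and 1.21 times in LOC409905, and LOC413190 (0.7999) and LOC411524 (1.252) stayed outside. Of the falling members, that of LOC412472 was the scarcest, at 2.06 FPKM, beside XM_006563765.1 at 1.996 FPKM outside. It held 3.3% of the FPKM of its gene, and the gene sum had a recovery mean 0.934 times the inhibited and egg-laying mean. LOC412351 was the highest relative to the nearer mean, at 0.666 times, beside XM_006563896.1 at 0.670 outside. The inhibited mean was 0.825 times the egg-laying mean in XM_006568298.1 and 1.24 times in LOC408421, and LOC551168 (0.772) and XM_006563038.1 (1.26) stayed outside.

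The virgin libraries show the level of the members in other queens, which had not been inseminated. The virgin mean was above the mean of the 6 inhibited and egg-laying queens for 57 of the 80 rising members (71.2%) and 17 of the 77 falling members (22.1%), beside 39.8% of all transcripts that reached 2 FPKM. It was at least 1.5 times that mean for 41 rising members (51.2%, beside 18.4%) and at least 1.5-fold below it for 48 falling members (62.3%, beside 36.9%). With the libraries rescaled to the same sum, virgin queens were above for 81.2% of the rising and 32.5% of the falling members, beside 59.4% of those transcripts. The inhibited and egg-laying values were themselves limited by the selection, and the sets with another mated group apart show the shares that come with it. With inhibited queens apart, virgin queens were above the mean of the other mated queens for 71.7% of the rising and 31.6% of the falling transcripts. With egg-laying queens apart, the shares were 43.8% and 43.1%. The rising set with inhibited queens apart thus had virgin queens above as often as the rising set of recovery queens, and the difference between sets was not tested.

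**Figure D3:**
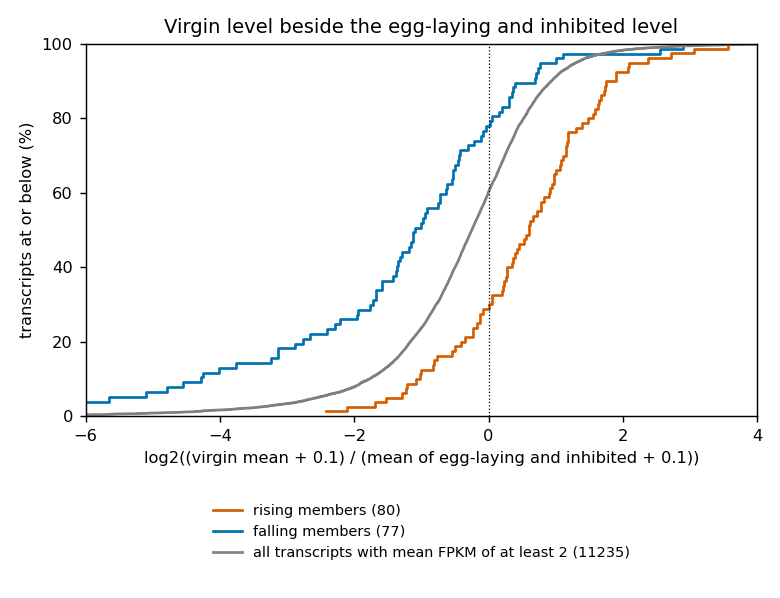
Cumulative share of transcripts (%) by log2 of the virgin mean over the mean of the 6 inhibited and egg-laying queens, 0.1 FPKM added to each, for the 80 rising members, the 77 falling members and all 11235 transcripts that reached 2 FPKM. The curve of the rising members lies to the right and that of the falling members to the left of all transcripts.

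In recovery queens the mean of 33 rising members lay between the inhibited and egg-laying mean and the virgin mean, and that of 24 lay past the virgin mean. For falling members the numbers were 44 and 16. The direction of change was therefore the one of the virgin queens for 57 rising and 60 falling members, and away from virgin queens for 23 and 17.

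The calls against virgin queens were counted for both sets. The 3 comparisons share the virgin libraries, their mated values had entered the selection, and the selection itself fixed that calls in recovery queens would shift toward the set's direction relative to the other mated groups, so the counts are a description. In egg-laying vs. virgin queens, 13 rising members were higher and 39 lower (median log2 difference -0.48), and 46 falling members were higher and 7 lower (median 0.90). Of all transcripts that reached 2 FPKM, 42.5% were higher and 22.1% lower in egg-laying queens (median 0.23). In inhibited vs. virgin queens, 12 rising members were higher and 40 lower (median -0.61) and 49 falling members higher and 7 lower (median 0.87), beside 41.3% and 22.1%. In recovery vs. virgin queens, 29 rising members were higher and 15 lower (median 0.21) and 25 falling members higher and 18 lower (median 0.09), beside 41.1% and 20.8% (median 0.22). In either direction, 105 members passed in egg-laying, 108 in inhibited and 87 in recovery vs. virgin queens, beside 64.6%, 63.3% and 61.9% of the transcripts at that level. The calls passed limma's adjusted p threshold of 0.05.

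**Figure D4:**
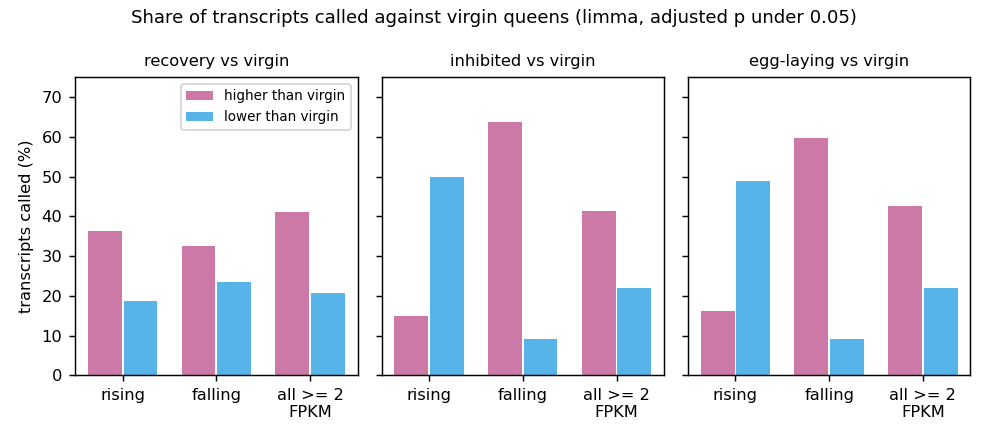
Share of transcripts (%) called higher or lower than in virgin queens by limma, for recovery, inhibited and egg-laying queens, in the 80 rising members, the 77 falling members and all 11235 transcripts that reached 2 FPKM. In egg-laying queens 39 rising members are lower and 46 falling members higher, and the shift of both sets in recovery queens follows from how they were selected.

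The direction of calls depended on how libraries were scaled. With FPKM rescaled to the same sum, 18 rising members were higher and 32 lower in recovery vs. virgin queens (median -0.19) and 21 falling members were higher and 28 lower (median -0.26), so the balance turned in both sets. The same rescaling moved the median of all transcripts in egg-laying vs. virgin queens to -0.36, against -0.05 with FPKM as deposited, and 27.8% of the calls were then higher, against 50.4%. For egg-laying vs. virgin queens it left 7 rising members higher and 51 lower, and 38 falling members higher and 13 lower. Summed marker genes of muscle, fat body and germline also differed between virgin and egg-laying queens, but not all markers went the same way. In egg-laying vs. virgin queens, 1 muscle transcript was called higher (TpnCIIa) and 12 lower of 15 tested. For fat body it was 1 higher (HEX70b) and 4 lower of 6, and for germline 2 higher and 0 lower of 4. Of all 17924 tested, 5024 were higher and 4935 lower. The summed FPKM of 6 troponin genes of muscle was 81.0 to 112.3 in recovery, 92.0 to 118.6 in inhibited, 85.1 to 111.6 in egg-laying and 345.1 to 679.2 in virgin queens, and that of 6 fat body genes (Vg, Tsf1 and hexamerins) was 71.3 to 101.4, 110 to 153.2, 83.9 to 98.8 and 127.9 to 450.2 in the same groups. Their part in the differences from virgin queens was not tested.

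Some members were far from virgin queens in all mated groups. The rising members LOC410211 and LOC412865 were mainly transcripts of the virgin ovary. LOC410211 had 5.04, 4.91 and 7.12 FPKM in recovery queens, 3.23 to 3.96 FPKM in inhibited queens, 2.99 to 3.52 FPKM in egg-laying queens and 25.5 to 66.2 FPKM in virgin queens. LOC412865 had 7.98, 7.97 and 13.65 FPKM in recovery queens, 4.13 to 5.94 FPKM in inhibited queens, 3.74 to 6.39 FPKM in egg-laying queens and 34.9 to 47.3 FPKM in virgin queens. Both were lower in egg-laying than in virgin queens, by -3.21 ± 0.27 (adjusted p = 1.675e-06) for LOC410211 and by -2.85 ± 0.22 (adjusted p = 9e-07) for LOC412865. Both were picked with their values known. The values are those of single transcripts, which held 25.6% (LOC410211) and 57.5% (LOC412865) of the FPKM of their genes. Summed over all transcripts, the recovery mean was 1.13 times the inhibited and egg-laying mean for LOC410211, with recovery queens not apart. For LOC412865 it was 1.855 times, with recovery queens apart. At the other end, the virgin mean was at most 0.1 times the inhibited and egg-laying mean for 12 falling members (15.6%, beside 2.86% of all transcripts that reached 2 FPKM) and for 0 rising members.

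For many member genes, one transcript differed and the others followed to a smaller extent or not at all. Of the 117 member genes, 69 had other transcripts in the data, and in 44 of these the member carried under 50% of the gene's FPKM. The other transcripts of a gene, summed, had a recovery mean with a median of 1.13 times the inhibited and egg-laying mean for rising genes (quartiles 1.01 and 1.37) and 0.934 times for falling genes (quartiles 0.779 and 1.06). They differed by 1.5-fold or more in the direction of the member in 5 of 31 rising and 3 of 38 falling genes, and lay on the opposite side of 1 in 7 and 11. Some of the opposite ratios rested on sums near 0, as in LOC409792 (0.052 against 0.064 FPKM). Summed over all its transcripts, the gene itself differed by 1.5-fold in 11 of the 31 and 8 of the 38. Recovery queens lay apart in the gene sum in 15 of the 31 and 20 of the 38. Among all transcripts that reached 2 FPKM, 5.32% had them all above and 7.46% all below. The gene sum includes the selected member, so nothing is read from these counts. Transcripts of a gene share reads that the authors' estimator had to divide between them, so the value of a single transcript is less certain than that of its gene. In LOC412777 and Usp the other transcripts had ratios of 1.01 and 1.14.

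**Figure D5:**
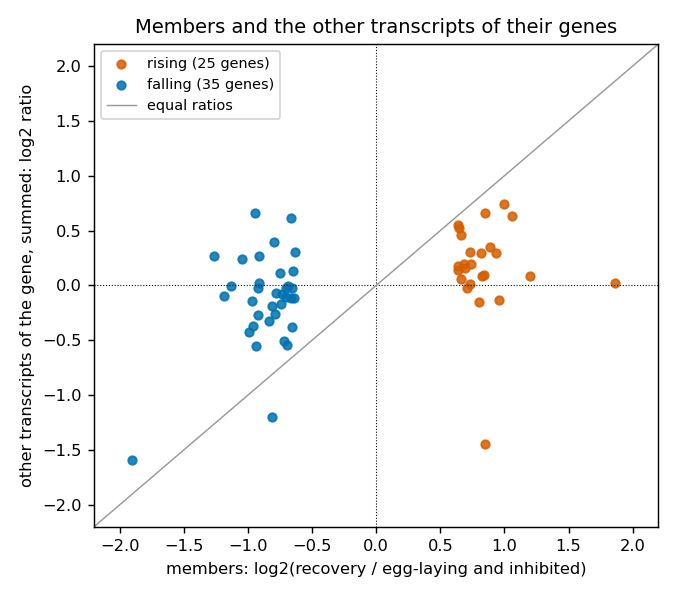
Log2 of the recovery mean over the inhibited and egg-laying mean, for the member (x axis) and for the other transcripts of the same gene summed (y axis). Shown are 60 genes whose other transcripts reached 1 FPKM, 25 with a rising and 35 with a falling member. Most points lie near the horizontal dotted line of no difference, and LOC410915 is low on both axes.

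Of the 4 genes with several members, the other transcripts were on the members' side with a similar ratio in LOC410689 and LOC410915. In LOC412069 the other transcripts did not all behave alike. Those of LOC409792 summed to 0.052 FPKM in recovery and 0.064 FPKM in inhibited and egg-laying queens, too little to read a ratio from. All 3 members of LOC410689 were rising. XM_006571175.1 had 5.13, 7.34 and 7.45 FPKM in recovery queens, 3.00 to 3.43 FPKM in inhibited and 2.86 to 4.59 FPKM in egg-laying queens, and 5.66 to 7.46 FPKM in virgin queens. The 3 members held 79.6% of the FPKM of a gene with 21 transcripts, and the remaining 18 had a ratio of 1.58. LOC409792 had 2 rising members of 4 transcripts, which together held 99.3% of its FPKM and had a ratio of 1.92. Its XM_006571138.1 had 4.51, 6.10 and 6.73 FPKM in recovery queens, 2.72 to 3.65 FPKM in inhibited, 2.76 to 3.77 FPKM in egg-laying and 10.97 to 16.7 FPKM in virgin queens, so recovery queens lay between. In LOC412069 the 2 falling members held 33.2% of the FPKM and had a ratio of 0.613, and the 3 other transcripts, summed, had 0.981. The most abundant of these, XM_395535.5, had 57.6 to 67.8 FPKM in recovery, 52.9 to 63.0 FPKM in inhibited and 57.2 to 62.3 FPKM in egg-laying queens. Another, XM_006568504.1, was on the members' side, with means of 8.68 FPKM in recovery and 13.5 FPKM in inhibited and egg-laying queens.

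Some member genes are next to each other in the order of the genes with data. Genes without data were left out of this order and may lie between them. In the gene order of the RefSeq annotation (Amel_HAv3.1), 116 member genes could be placed among 7321 genes with data (1.58%), and 5 pairs were neighbours, 4 with the same direction. Whether this is more than chance would give was not tested. LOC408552 and LOC408551, both rising, had 33.7 to 52.2 and 26.4 to 41.75 FPKM in recovery queens, 12.65 to 18.6 and 14.4 to 20.04 FPKM in inhibited queens, 15.6 to 23.95 and 13.2 to 23.6 FPKM in egg-laying queens and 61.05 to 126 and 45.65 to 84.0 FPKM in virgin queens. In this order LOC410915 is beside LOC552149, also falling, which had 3.23, 2.39 and 2.70 FPKM in recovery queens, 4.22, 7.04 and 5.725 FPKM in inhibited queens and 3.93, 3.42 and 9.21 FPKM in egg-laying queens. The other pairs were LOC100577014 with LOC727593 and LOC552249 with LOC724481, all falling, and LOC410211 (rising) with LOC408294 (falling).

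The gene groups around the named members were small in this tissue. Of 26 cuticle protein genes, 9 transcripts reached 2 FPKM. In 4 of these, all recovery queens were above all inhibited and egg-laying queens, beside 5.32% of all transcripts at that level. CPR4 and Cpap3-b are among the 4 by selection, and the list was made after the members were known, so nothing is read from this count. The others were CPR12 and CPR14, whose inhibited means were outside the limits of the selection. CPR12 had 6.65, 7.07 and 5.24 FPKM in recovery queens, 2.39, 1.76 and 1.91 FPKM in inhibited queens, 3.06, 3.18 and 3.13 FPKM in egg-laying queens and 2.74, 3.15 and 3.75 FPKM in virgin queens. CPR14 had 40.1, 59.9 and 87.8 FPKM in recovery queens, 39.8, 24.85 and 27.8 FPKM in inhibited queens, 24.0, 18.3 and 23.4 FPKM in egg-laying queens and 22.8, 30.2 and 14.6 FPKM in virgin queens. In egg-laying vs. virgin queens, 2 cuticle transcripts were higher and 9 lower of 23 tested (median -0.39), beside 5024 higher and 4935 lower of all 17924 tested (median -0.05).

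Of 28 transcripts of ecdysteroid and juvenile hormone genes at or above 2 FPKM, the Usp transcript was the only member. In 1 other, all recovery queens were below all inhibited and egg-laying queens, beside 7.46% of all transcripts at that level. In egg-laying vs. virgin queens 21 of 51 transcripts of this group were higher and 5 lower (median 0.38), beside the same 5024 and 4935 of 17924. Prohormone-2 was 1 of 3 neuropeptide transcripts and Uvop the only opsin transcript to reach 2 FPKM. Of the venom peptides, Mcdp, the mast cell degranulating peptide, reached that level besides Apamin. It had 3.05, 2.25 and 0 FPKM in recovery queens, 1.90, 2.22 and 5.36 FPKM in inhibited queens and 6.63, 7.13 and 4.28 FPKM in egg-laying queens, was listed at 0 in all virgin queens, and overlapped between recovery and inhibited queens. No transcript of the marker genes for germline, fat body, muscle, neuron or haemocyte was a member, and none of those that reached 2 FPKM had all recovery queens past all other mated queens.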

How the data were processed

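Ovaries of 12 sister queens (4 groups of 3, 1 directional, rRNA-depleted library per queen) were sequenced by the authors, who aligned paired-end reads to Amel_4.5 with TopHat2 2.0.9 and assembled and estimated transcripts with Cufflinks. The deposited values are FPKM per transcript. Read counts per library are unknown, so no interval for counting error is given. Groups were taken from the sample labels.

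All 21596 transcripts were read and the selection limits applied to FPKM as deposited. Tests against virgin queens used limma 3.58.1 in R 4.3.3 on log2(FPKM + 1), in 1 fit of all 4 groups, for 17924 transcripts with a mean of at least 0.1 FPKM, with Benjamini-Hochberg adjustment over all of them and a threshold of 0.05. The study itself tested counts with DESeq, which FPKM does not allow. A log2 change on this scale understates the change of low transcripts. On simulated egg-laying vs. virgin data, the fit found 79 of 100 changes of log2 1 and 94 of 100 of log2 2, with 9 false calls among 17924 transcripts. Counts, ratios and plots were made in Python 3.11.15 (matplotlib 3.10.9, pandas 2.3.3, numpy 2.4.6).

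Transcripts were paired with genes through the RefSeq table of Amel_HAv3.1 (12556 of 21596, 58.1%), used for names and gene order only. Members named were, per set, the 8 with the largest ratio to the nearer of the inhibited and egg-laying means and the 4 with the highest mean. Those whose gene has a name, those beside each limit of the selection and those of genes with several members were also named. Those without a gene name were given by ranges where they exceeded about 40 in all, and named ones outside this rule are marked. The members and lists were chosen with earlier results of these data known. Of 25 lists of name patterns, 15 matched any transcript (57 in all) and 1 held a member, prohormone-2. The 5 groups of genes and 5 groups of cell type markers by symbol were added after the members were known and support no statement beyond their counts.

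Same-numbered queens did not deviate together (r from -0.10 to 0.15 over 18 pairs), so the fit had no replicate block. Alternatives were other pseudocounts, FPKM filters, scalings, selection limits, gene sums, array weights, the block, fits of only the groups compared, and each library left out. The miRNA files were not used here.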

Additional observations from a re-analysis of the deposited data

How the results depend on the processing

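The number of members depended on the limits and on the libraries used. A minimum of 5 FPKM left 47 rising and 48 falling members, and a fold of 2 left 9 and 14. FPKM summed per gene gave 46 falling units, in which each transcript without a gene ID was kept as its own unit. Of the 77 falling members, 20 had no gene ID, so the 46 are not a count of genes. With 1 mated library left out, the counts ranged from 74 to 148 rising and from 76 to 150 falling members. The highest were without recovery replicate 1, with 67 of the 80 and 69 of the 77 original members among them, and without recovery replicate 3 there were 117 falling members. With a recovery library left out, fewer recovery values have to lie apart, so the selection itself makes higher counts easier to reach. Without egg-laying replicate 1 there were 103 rising members. FPKM rescaled to the same sum kept 75 of the 80 and 66 of the 77, and in recovery vs. virgin queens it left 18 rising members higher, against 29, and 28 falling members lower, against 18. All other counts of members called against virgin queens in the directions given for most of a set stayed within 1.5 times under all alternatives. Over the members called in either direction, leaving out 1 library gave 97 to 112 in egg-laying (105 with all), 78 to 90 in recovery (87) and 101 to 110 in inhibited vs. virgin queens (108). Of 924 values of egg-laying vs. virgin queens for 42 named members, 887 kept their call and direction, 25 no longer passed, 12 newly passed and 0 reversed.

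Over all transcripts, calls among the mated groups were few and unstable. Recovery vs. inhibited queens had 118 calls, 485 with array weights and 19 to 230 with 1 library left out. Recovery vs. egg-laying queens had 9 calls, 18 with a pseudocount of 0.01, 15 with no FPKM filter, 14 with a mean of at least 1 FPKM, 17 rescaled to the same sum, 17 quantile normalized, 3 with only the groups compared, 108 with array weights, and 2 to 30 with 1 library left out. Inhibited vs. egg-laying queens had 25 calls, 14 with no FPKM filter, 10 rescaled to the same sum, 16 quantile normalized, 11 with only the groups compared, 90 with array weights, and 9 to 35 with 1 library left out. With a replicate block, these comparisons had 5 (recovery vs. egg-laying) and 14 (inhibited vs. egg-laying) calls, and members called in egg-laying vs. virgin queens were 106, against 105, where 6 libraries correlated best with their own number. The causes were not tested. The number of queens, 3 per group, limits the precision.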
